A study of Mus musculus with 20 samples.

Results

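Cell cycle and DNA replication genes were followed in 2 myeloid populations sorted from mouse tumours, from mice with and without a drug that blocks the bromodomains of CBP and EP300, 2 related histone acetyltransferases. The members were 36 of the 23090 genes listed in the count table of each library, taken by symbol and matched to their gene identifiers. They fell into 17 S-phase members, which license origins, copy DNA or supply nucleotides, and 19 mitotic members, which drive entry into mitosis, build the spindle or separate chromosomes. All 36 passed the filter on low counts in every comparison.

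Poly-A RNA was sequenced in 20 libraries, 5 in each of 4 groups. All mice were female SCID.beige animals of 6 to 8 weeks, a strain without T cells, B cells or functional NK cells, and bore tumours grown under the skin from MDA.MB.231-X1.1 (human breast cancer) or CT26 (mouse colon carcinoma) cells. The labels do not tie a library to either line, so differences between the lines cannot be told apart from differences between libraries. Once tumours averaged 150 to 200 mm3 the mice received MCT as vehicle, or GNE-781 at 25 mg/kg (labelled CBPi-781, here CBPi), BID by oral gavage for 7 days. Cells positive for CD45, CD11b and Ly6C and negative for F4/80 were then sorted as mMDSC, without Ly6G, or gMDSC, with Ly6G, the names of monocytic and granulocytic myeloid-derived suppressor cells. Vehicle libraries are numbered 1 to 5 and CBPi libraries 6 to 10 in each population.

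Dividing cells pass from G1, where D-type and E-type cyclins release E2F transcription factors from the retinoblastoma proteins, into S phase, where MCM helicase loaded at origins opens the DNA for the replication fork. Genes for replication are largely E2F targets and rise before and during S phase, whereas genes for mitosis peak later, through the MuvB complex with B-MYB and FOXM1 acting at CHR elements and CCAAT boxes. Mature neutrophils and monocytes are non-dividing cells, and the proliferating cells of both lineages are their precursors, mostly in bone marrow.

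The promoters of the members are shown because the S-phase and mitotic classes differ in them before any expression value is considered. The RefSeq promoter table of build GRCm38.p6 held windows from 250 bases before to 50 bases after an annotated start for 30 of the 36 members, 14 S-phase and 16 mitotic. The windows below are cut to run from base -200 towards the start and end before the annotated span of the gene. Each is read 5′ to 3′ on the strand of the gene. In the 4 mitotic promoters the capitals mark matches to the CHR element, TTTGAA or TTCGAA on either strand, so that TTCAAA is a match on the other strand. The window of Ccnb2 holds a further match, TTTGAA from base 5 after the start, which lies outside the stretch shown.
Mki67 (chr7:135716451-135716579, - strand, bases -200 to -72): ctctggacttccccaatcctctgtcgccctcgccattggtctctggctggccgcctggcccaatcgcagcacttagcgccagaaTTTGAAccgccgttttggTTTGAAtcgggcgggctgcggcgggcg
Top2a (chr11:99024200-99024389, - strand, bases -200 to -11): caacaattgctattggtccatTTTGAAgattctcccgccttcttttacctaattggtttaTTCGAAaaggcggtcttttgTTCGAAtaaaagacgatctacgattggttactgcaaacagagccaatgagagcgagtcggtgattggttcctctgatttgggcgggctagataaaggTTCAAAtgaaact
Ccnb2 (chr9:70421564-70421754, - strand, bases -200 to -10): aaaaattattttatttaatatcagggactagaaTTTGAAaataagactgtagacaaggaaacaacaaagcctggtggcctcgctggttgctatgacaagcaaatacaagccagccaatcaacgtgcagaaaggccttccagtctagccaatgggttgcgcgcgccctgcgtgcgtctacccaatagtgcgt
Cdc20 (chr4:118437353-118437543, - strand, bases -200 to -10): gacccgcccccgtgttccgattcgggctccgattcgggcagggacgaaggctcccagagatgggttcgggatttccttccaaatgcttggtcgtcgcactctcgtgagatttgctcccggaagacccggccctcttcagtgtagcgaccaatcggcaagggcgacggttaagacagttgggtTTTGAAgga
In the 2 promoters of MCM helicase subunits the capitals mark the E2F site, searched as TTTGGCGC, TTTGCCGC, TTTCGCGC or TTTCCCGC on both strands. Where 2 such matches on opposite strands overlap they form a single run of capitals.
Mcm5 (chr8:75109309-75109467, + strand, bases -200 to -42): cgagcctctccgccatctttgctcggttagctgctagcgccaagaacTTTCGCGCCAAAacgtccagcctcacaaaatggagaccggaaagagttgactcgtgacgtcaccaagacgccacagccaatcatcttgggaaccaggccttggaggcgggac
Mcm6 (chr1:128359715-128359905, - strand, bases -200 to -10): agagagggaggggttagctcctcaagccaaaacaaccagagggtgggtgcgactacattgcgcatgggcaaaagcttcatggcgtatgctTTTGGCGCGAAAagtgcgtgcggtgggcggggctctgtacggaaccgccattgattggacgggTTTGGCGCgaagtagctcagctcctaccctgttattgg

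A CHR element was present in the window of 13 of the 16 mitotic members (81.2%), the exceptions being Birc5, Ccnb1 and Cenpe, and in 2 of the 14 S-phase members (14.3%), Mcm2 and Mcm7. The same letters occurred in 16.5% of the 9878 genes with a window that were tested in at least 1 comparison, and in 21.7% of the 27025 genes of the promoter table. The E2F site was found in 7 of the 14 S-phase members (50%), namely Cdc6, Cdt1, Mcm3, Mcm5, Mcm6, Mcm7 and Uhrf1, and in 1 of the 16 mitotic members (6.25%), Cdk1, against 4.69% of tested genes and 2.6% of the promoter table. The CCAAT box, searched as CCAAT on both strands, was present in 15 of 16 mitotic members (93.8%, the exception being Birc5) and 9 of 14 S-phase members (64.3%), against 42.7% of tested genes and 41.1% of the table. No full match to one motif contains another, and each motif was counted separately. A match is a description of the letters in these windows, and no binding was measured.

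**Figure D1:**
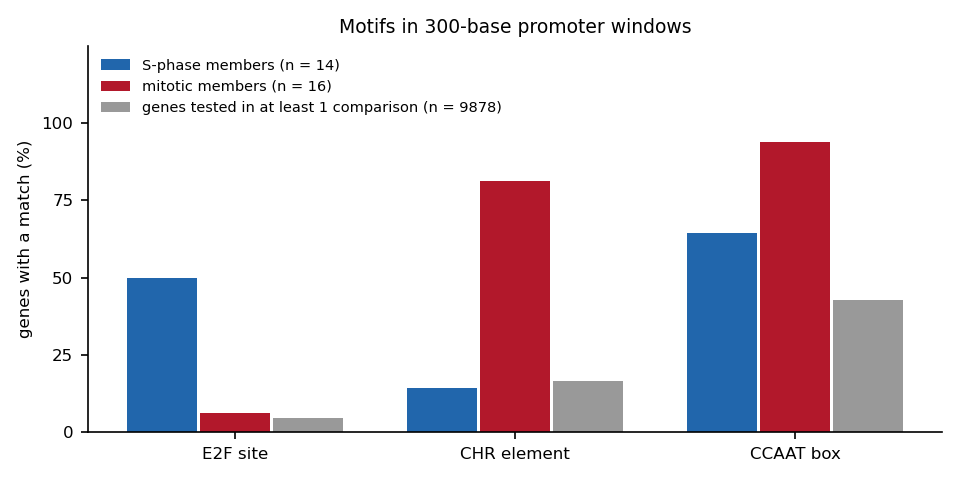
Share of genes with at least 1 match (percent, vertical axis) to the E2F site, the CHR element and the CCAAT box in promoter windows from 250 bases before to 50 bases after the start, for 14 S-phase members, 16 mitotic members and 9878 tested genes. The E2F bar is highest for S-phase members (50%) and the CHR bar for mitotic members (81.2%).

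Total counts ran from 12.37 to 26.64 mega-counts per library. The sorted populations carried their markers: the neutrophil chemokine receptor Cxcr2 was at 1.28 ± 0.946 CPM (TMM-scaled counts per mega-count; SD, n = 5) in vehicle mMDSC and 1428 ± 371 CPM in vehicle gMDSC, and the monocyte chemokine receptor Ccr2 at 653 ± 99.4 and 218 ± 83.7 CPM. Adgre1, which encodes F4/80, was at 839 ± 90.8 CPM in vehicle mMDSC and 1038 ± 322 CPM in vehicle gMDSC although both gates were negative for it. Vehicle gMDSC 3 stood apart, with a mean correlation of 0.868 with its group against 0.917 to 0.969 for the other 19 libraries. Vehicle gMDSC 5 was the lowest of its group in Ly6g, at 0.438 CPM in a group that reached 9.2 CPM. Counts that rest on these 2 libraries are given with and without them.

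In vehicle mice the mitotic members were higher in gMDSC than in mMDSC, and the S-phase members less uniformly so. Of the 36 members, 17 were higher in gMDSC and 0 lower in edgeR's quasi-likelihood test at an adjusted p under 0.05, against 13.6% of all tested genes called higher and 8.08% called lower. These 17 were 13 of the 19 mitotic members and 4 of the 17 S-phase members. The median log2 fold change was 1.30 for mitotic and 0.65 for S-phase members, against -0.06 over all tested genes. No member was lower at an unadjusted p under 0.05 either, and DESeq2 also called 0 lower. In bulk libraries a larger share of dividing cells and more of these transcripts per dividing cell cannot be told apart.

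Summed over the 19 mitotic members, vehicle mMDSC 1 to 5 held 301, 260, 164, 186 and 232 CPM, and vehicle gMDSC 1 to 5 held 554, 533, 442, 530 and 566 CPM. Every gMDSC library was above every mMDSC library. The 17 S-phase members summed to 411 ± 97.7 CPM in vehicle mMDSC (range 319 to 553) and 600.5 ± 114 CPM in vehicle gMDSC (range 453 to 718), which overlapped. The ratio of the mitotic to the S-phase sum was 0.558 ± 0.0602 in vehicle mMDSC and 0.891 ± 0.117 in vehicle gMDSC, and its ranges, 0.504 to 0.649 and 0.741 to 1.01, did not overlap.

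**Figure D2:**
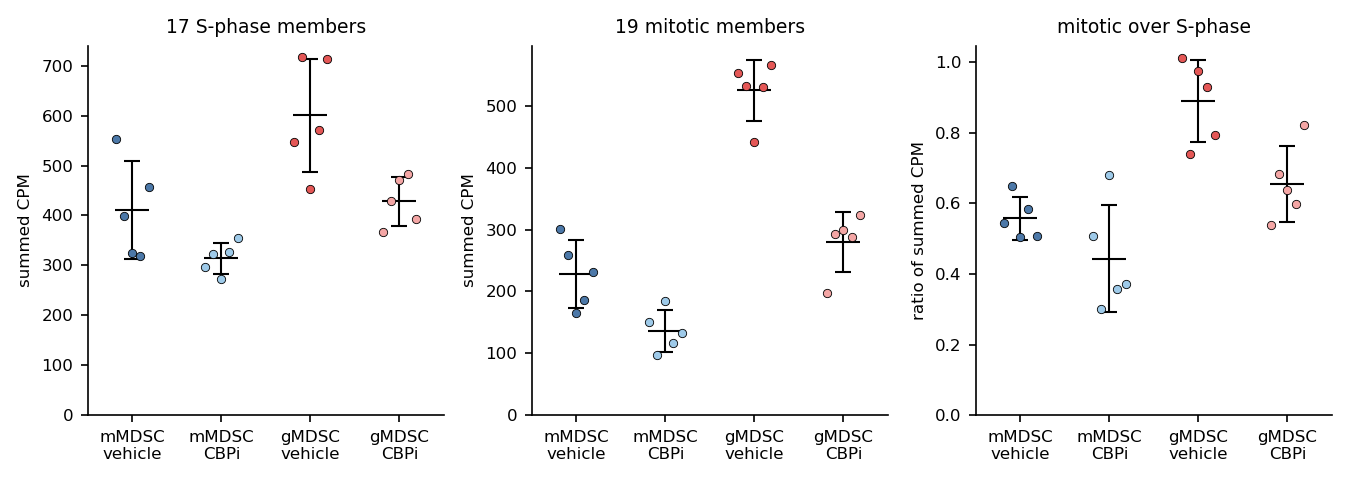
Summed CPM of the 17 S-phase members, summed CPM of the 19 mitotic members, and the ratio of the mitotic to the S-phase sum in each library (points) of the 4 groups; bars are mean ± SD, n = 5. The mitotic sums of vehicle gMDSC, from 442 to 566 CPM, lie above all other libraries.

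Among the drivers of mitotic entry, Cdk1, the kinase that cyclins A and B activate, was at 17.8, 16.5, 10.2, 10.9 and 12.0 CPM in vehicle mMDSC 1 to 5 and at 50.5, 30.4, 27.3, 44.7 and 35.3 CPM in vehicle gMDSC 1 to 5. The groups did not overlap (log2 fold change 1.49 ± 0.24 (SE), adjusted p = 0.000583). Ccnb2, a B-type cyclin, was at 18.2, 12.1, 3.3, 4.74 and 10.1 CPM in the mMDSC libraries and at 34.7, 32.5, 23.2, 51.1 and 37.4 CPM in the gMDSC libraries, a difference of 1.90 ± 0.41 (adjusted p = 0.00484) with no overlap. Ccna2, cyclin A2, was higher in gMDSC by 1.32 ± 0.40 (adjusted p = 0.0302), while Ccnb1, cyclin B1, was low throughout, with 3 to 50 reads in a vehicle library, and was not called (1.59 ± 0.67, adjusted p = 0.119). The mitotic kinase Plk1 was higher by 1.42 ± 0.38 (adjusted p = 0.0168). The Aurora kinases were not called: Aurka, which acts at spindle poles, was at 13.2 ± 2.09 and 21.1 ± 6.63 CPM (adjusted p = 0.0836), and Aurkb, the kinase of the chromosomal passenger complex, at 13.5 ± 4.04 and 22.9 ± 9.08 CPM (adjusted p = 0.151).

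The other passenger complex members were called. Birc5, survivin, was at 11.1, 9.89, 8.02, 7.09 and 6.98 CPM in vehicle mMDSC and at 24.5, 23.1, 23.9, 16.7 and 19.8 CPM in vehicle gMDSC, without overlap (1.34 ± 0.23, adjusted p = 0.000897). Cdca8, borealin, differed by 0.89 ± 0.28 (adjusted p = 0.0386). Cdc20, which activates the anaphase-promoting complex, was at 13.1, 5.24, 9.84, 5.38 and 9.69 CPM in the mMDSC libraries and at 34.1, 30.01, 27.7, 20.8 and 28.3 CPM in the gMDSC libraries (1.72 ± 0.29, adjusted p = 0.000761). The lowest gMDSC library was above the highest mMDSC library. Ube2c, the ubiquitin-conjugating enzyme of that complex, differed by 1.30 ± 0.27 (adjusted p = 0.0036).

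The spindle checkpoint kinases Bub1 and Bub1b were higher in gMDSC by 1.48 ± 0.46 (adjusted p = 0.0376) and 1.36 ± 0.42 (adjusted p = 0.0341). The kinetochore motor Cenpe was higher by 1.20 ± 0.30 (adjusted p = 0.0117). The kinetochore protein Cenpf, the spindle motor Kif11 and the spindle assembly factor Tpx2 were not called, with differences of 1.26 ± 0.66, 0.98 ± 0.47 and 1.29 ± 0.57. Top2a, the topoisomerase that untangles chromosomes, had a mean of 27.9 ± 10.6 CPM in mMDSC against 64.3 ± 12.8 CPM in gMDSC (1.23 ± 0.26, adjusted p = 0.00445). The proliferation marker Mki67, which coats mitotic chromosomes, was at 55.7, 35.0, 37.5, 57.5 and 32.3 CPM in vehicle mMDSC and at 79.5, 71.9, 88.6, 90.3 and 81.6 CPM in vehicle gMDSC (0.93 ± 0.20, adjusted p = 0.00396). Its groups did not overlap.

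Of the S-phase members, 4 were called. The nucleotide enzymes among them were Tyms, thymidylate synthase (8.72 ± 2.96 against 17.3 ± 3.56 CPM, 1.01 ± 0.28, adjusted p = 0.022), Tk1, the salvage kinase for thymidine (8.32 ± 1.51 against 15.3 ± 2.56 CPM, 0.89 ± 0.24, adjusted p = 0.0174), and Rrm1, the large subunit of ribonucleotide reductase (52.8 ± 9.85 against 84.8 ± 17.6 CPM, 0.71 ± 0.19, adjusted p = 0.0168). Mcm6 was the only helicase subunit called, at 57.1, 47.1, 19.9, 40.6 and 49.3 CPM in vehicle mMDSC and 83.6, 91.4, 52.3, 102 and 96.4 CPM in vehicle gMDSC (1.01 ± 0.27, adjusted p = 0.0163). Its lowest gMDSC library, number 3, lay below the highest mMDSC library. The other helicase subunits ranged from -0.01 (Mcm4) to 0.86 (Mcm7), and the sign of Mcm4 turned under another scaling of the libraries.

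The remaining S-phase members did not pass. Among them Pcna, the sliding clamp, was at 9.98 ± 2.44 CPM in vehicle mMDSC and 10.9 ± 2.76 CPM in vehicle gMDSC, a difference of 0.14 ± 0.27. The licensing factor Cdt1 had the only other negative value, -0.26 ± 0.23. The loading factor Cdc6 varied widely, from 0 to 12.8 CPM within vehicle gMDSC. Gins2, of the helicase complex, Uhrf1, which guides maintenance of DNA methylation, and the E-type cyclins Ccne1 and Ccne2 had differences of 0.51 to 0.80, and Rrm2, the small reductase subunit, 0.78 ± 0.33 (adjusted p = 0.123).

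Per kilobase of the deposited gene width, the members with the highest mean level in vehicle gMDSC were Birc5 at 48.0, Cdk1 at 42.1 and Rrm1 at 35.6 CPM per kb. In vehicle mMDSC they were Mcm4 at 23.5, Rrm1 at 22.2 and Mcm5 at 21.5 CPM per kb, all S-phase members. Cenpf was the lowest member in both, at 0.988 and 0.417 CPM per kb.

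**Figure D3:**
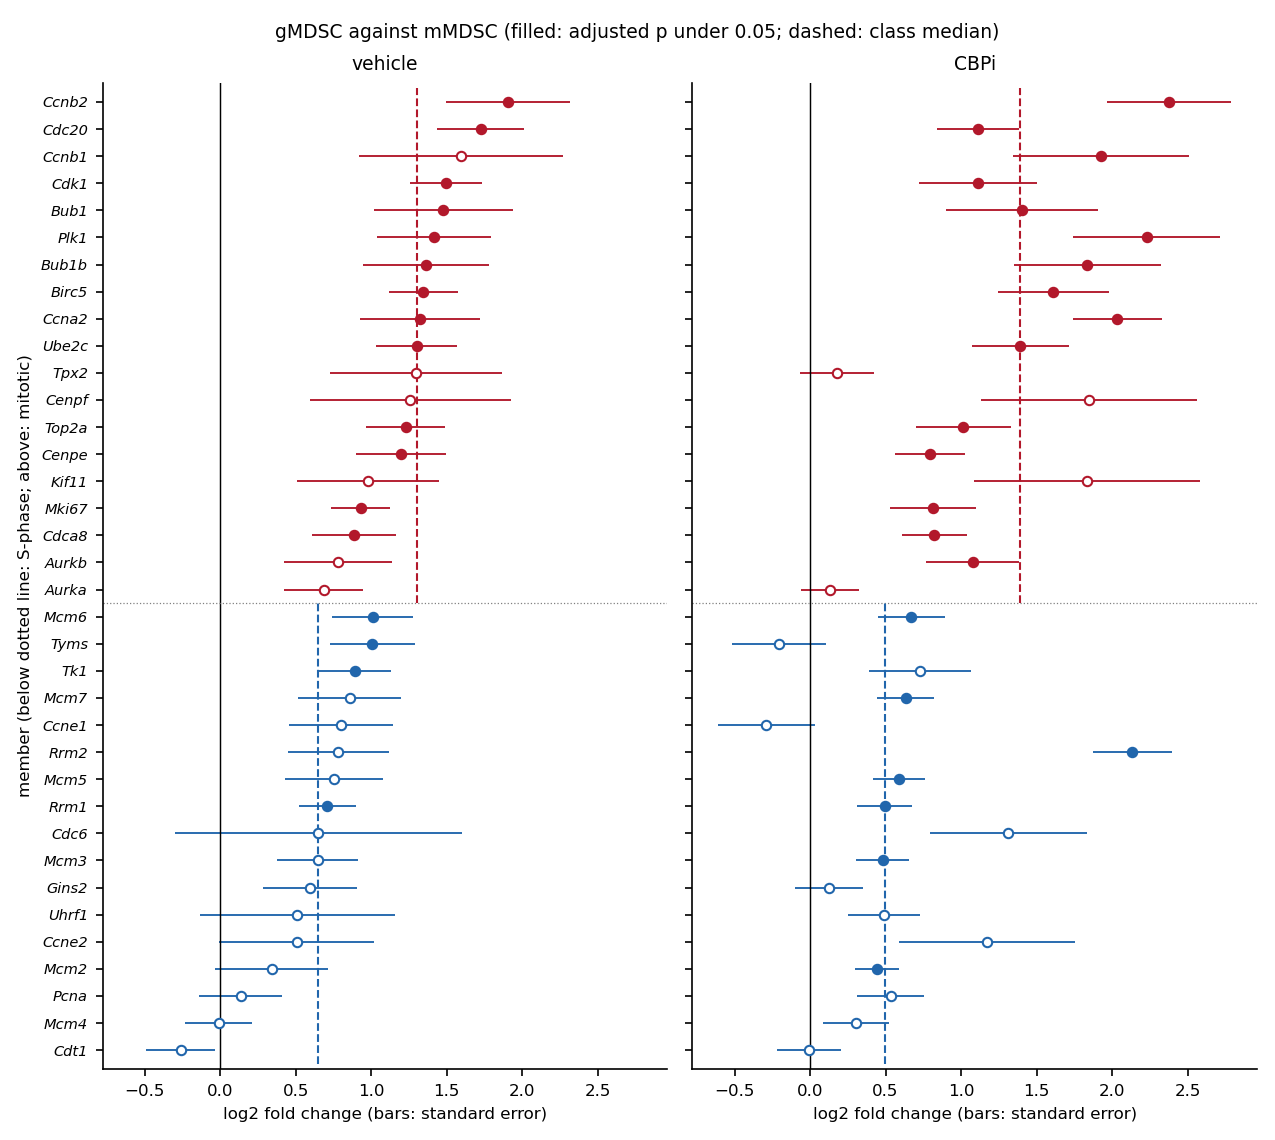
Log2 fold change of each member in gMDSC against mMDSC (horizontal axis; bars are standard errors), in vehicle and under CBPi; filled points have an adjusted p under 0.05 and dashed lines are the medians of the S-phase (blue) and mitotic (red) members. The mitotic medians are 1.30 and 1.39 and the S-phase medians 0.65 and 0.49.

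Levels of other markers moved with this difference. The 8 epithelial markers summed to 5.49 to 14.5 CPM in vehicle mMDSC and 24.1 to 56.3 CPM in vehicle gMDSC, of which the keratin Krt18 made up 0.916 ± 0.312 and 34.0 ± 11.4 CPM, and none of the 8 was at 0 in all libraries of a group. The 12 granulocyte precursor genes summed to 64.6 to 206 CPM and 245 to 811 CPM, but went both ways. Of the 9 tested, 1 was called higher in gMDSC, the lipocalin Lcn2, also made by mature neutrophils, which made up most of the gMDSC sum (6.93 ± 2.84 and 408 ± 207 CPM). The 3 called lower were Prtn3, proteinase of primary granules (5.87 ± 3.18 and 0.15 ± 0.286 CPM), Chil3 (88.8 ± 37.7 and 2.41 ± 2.53 CPM) and Fcnb (4.21 ± 2.29 and 0.26 ± 0.581 CPM). Ctsg and Ms4a3 were at 0 in all vehicle gMDSC libraries and near 0 in vehicle mMDSC (means 0.07 and 0.12 CPM). Of the 9 tested, 5 were above 0 and 4 below. Ltf, above 0 but not called, was at 7.94 ± 7.99 and 58.1 ± 18.5 CPM. The 10 macrophage genes summed to 22540 to 32230 CPM and 33800 to 76850 CPM, mostly from Apoe (18340 ± 3534 and 32950 ± 13500 CPM). Of these, 5 were called higher in gMDSC (Apoe, C1qa, C1qb, C1qc and Trem2) and 2 lower, Gpnmb (-2.09 ± 0.37) and Cd68 (-0.54 ± 0.16). The part of these cells in the difference was not tested. Without vehicle gMDSC 3 and 5, an omission chosen after seeing the data, the calls of Tyms, Cdca8 and Bub1b were lost while Aurka, Aurkb and Tpx2 passed. Leaving out 1 library at a time kept 11 of the 17 calls; Rrm1 was lost without vehicle mMDSC 2 (adjusted p = 0.0517), and Tyms, Ccna2, Cdca8, Bub1 and Bub1b were each lost in 5 to 8 of the 10 omissions, with adjusted p up to 0.103.

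The comparison of CBPi with vehicle in mMDSC asked what the inhibitor did to these genes in the monocytic population. Of the 36 members, 6 fell and 0 rose, against 5.54% of tested genes called lower and 3.02% called higher. The 6 were the mitotic members Birc5, Ccna2, Aurkb and Mki67 and the S-phase members Rrm2 and Tk1. The median log2 fold change was -1.16 for mitotic and -0.36 for S-phase members, with 18 of 19 and 15 of 17 members below 0 and a median of 0.01 over all tested genes. The 3 members with positive values, Ccne1, Tyms and Tpx2, missed an unadjusted p of 0.05 too, and DESeq2 called 8 members lower and 0 higher.

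Birc5 was at 11.1, 9.89, 8.02, 7.09 and 6.98 CPM in vehicle mMDSC 1 to 5 and at 3.45, 1.42, 5.55, 2.04 and 2.02 CPM in CBPi mMDSC 6 to 10. Each CBPi library was below each vehicle library (-1.59 ± 0.36, adjusted p = 0.0149), on 39 to 255 reads per library. Rrm2 was at 24.5, 15.1, 12.1, 10.6 and 18.2 CPM in vehicle and at 5.76, 4.19, 10.01, 3.84 and 6.77 CPM under CBPi, again without overlap (-1.41 ± 0.30, adjusted p = 0.0115). The other ribonucleotide reductase gene, Rrm1, was at 52.8 ± 9.85 and 39.0 ± 7.00 CPM and was not called (-0.44 ± 0.17, adjusted p = 0.138).

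Ccna2 was at 14.8, 9.5, 6.4, 3.04 and 11.5 CPM in vehicle and at 2.66, 3.94, 5.2, 2.69 and 3.17 CPM under CBPi (-1.37 ± 0.38, adjusted p = 0.044). Vehicle mMDSC 4 lay within the CBPi range and the other 4 vehicle libraries above it. Aurkb was at 14.5, 15.6, 11.7, 7.68 and 18.3 CPM in vehicle and at 4.31, 5.21, 9.96, 4.84 and 5.46 CPM under CBPi (-1.20 ± 0.29, adjusted p = 0.0206), and only CBPi mMDSC 8 reached into the vehicle range. Mki67 was at 55.7, 35.0, 37.5, 57.5 and 32.3 CPM in vehicle and at 10.8, 14.98, 38.3, 17.7 and 17.05 CPM under CBPi (-1.16 ± 0.31, adjusted p = 0.0344). Here too CBPi mMDSC 8 lay within the vehicle range and the other 4 CBPi libraries below it.

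Tk1 was at 8.32 ± 1.51 CPM in vehicle and 3.89 ± 1.67 CPM under CBPi (-1.11 ± 0.31, adjusted p = 0.0468). The fitted values of Kif11 (-1.96 ± 0.83), Bub1b (-1.48 ± 0.51) and Plk1 (-1.44 ± 0.56) were as large as those of called members, with wider errors, and did not pass. Cdc20 was at 8.65 ± 3.34 and 8.34 ± 2.37 CPM (-0.06 ± 0.30), and Cdk1 at 13.5 ± 3.44 and 10.3 ± 5.44 CPM (-0.40 ± 0.40). The helicase subunits Mcm2 to Mcm7 ranged from -0.52 (Mcm5) to -0.16 (Mcm7), with adjusted p from 0.308 to 0.828.

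**Figure D4:**
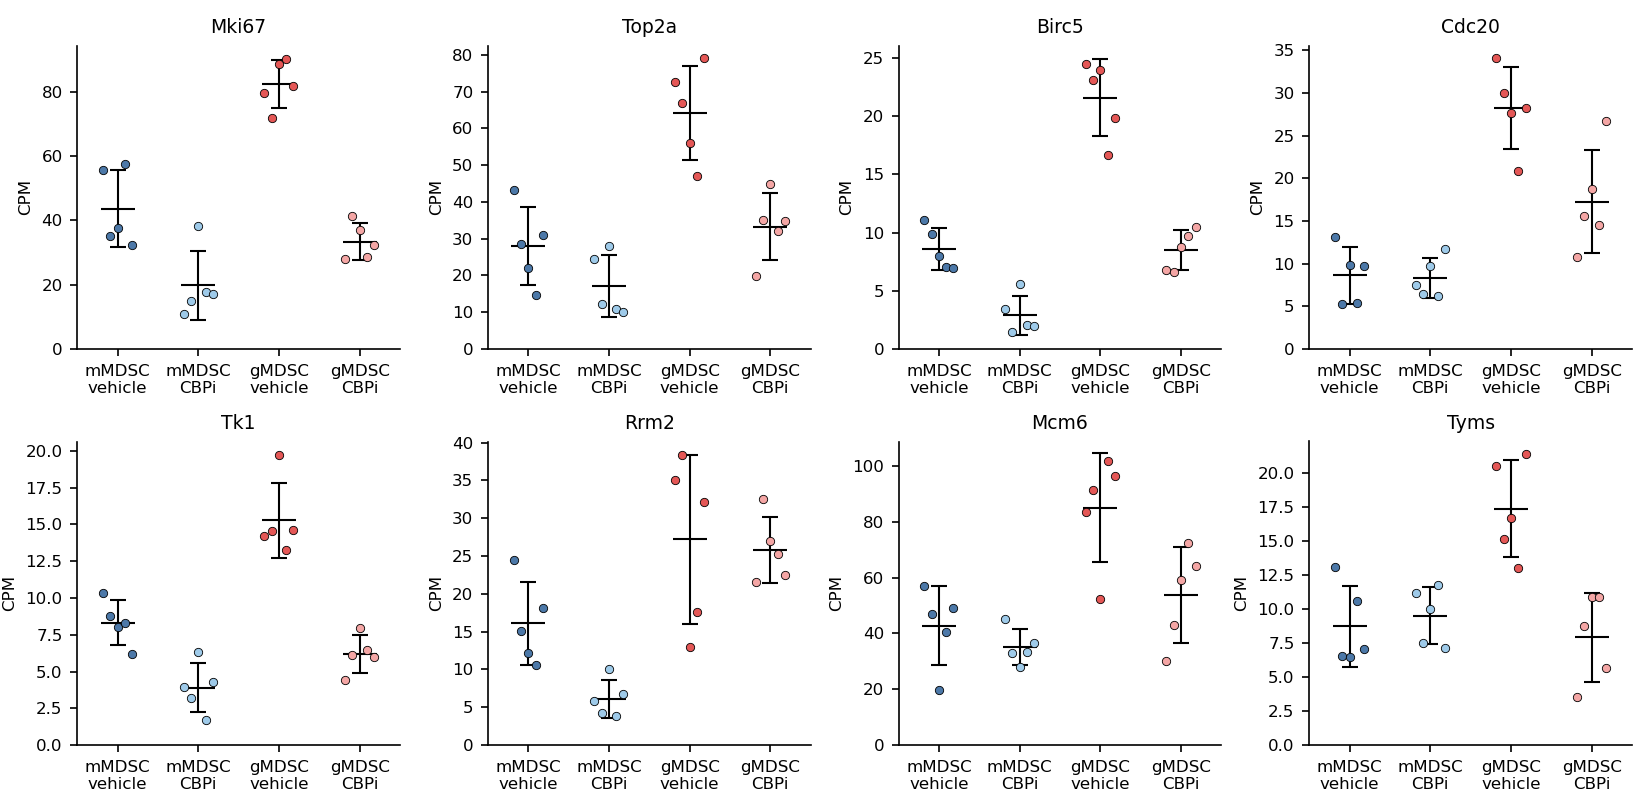
CPM of 4 mitotic members (upper row) and 4 S-phase members (lower row) in each library of the 4 groups; bars are mean ± SD, n = 5, and each panel has its own axis from 0. Mki67 and Birc5 are lower under CBPi in both populations, whereas Rrm2 is lower in mMDSC (6.11 against 16.1 CPM) and at a like mean in gMDSC (25.8 against 27.2 CPM).

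The mitotic sum was 229 ± 55.1 CPM in vehicle mMDSC and 136 ± 33.6 CPM under CBPi, and the S-phase sum 411 ± 97.7 and 314 ± 31.3 CPM. The ratio of the mitotic to the S-phase sum was 0.544, 0.649, 0.504, 0.584 and 0.508 in vehicle mMDSC 1 to 5 and 0.507, 0.301, 0.68, 0.358 and 0.372 in CBPi mMDSC 6 to 10. It overlapped between the groups, with CBPi mMDSC 8 above all vehicle libraries. Markers of cell identity moved with this comparison. The 10 monocyte genes summed to 6134 to 7209 CPM in vehicle and 4357 to 5612 CPM under CBPi, and 4 were called lower and 0 higher: Ccr2 (653 ± 99.4 to 198 ± 22.3 CPM), Ly6c2, which encodes Ly6C (832 ± 245 to 354 ± 56.2 CPM), Irf8 and Cx3cr1. Macrophage genes had overlapping sums, 22540 to 32230 and 19430 to 24300 CPM, with 4 called lower (Adgre1, C1qc, Cd68 and Gpnmb) and Mrc1 higher. The 9 erythroid and platelet markers summed to 25.1 to 52.2 and 81.4 to 261 CPM, mostly from Pf4, platelet factor 4 (38.0 ± 9.71 to 137 ± 73.7 CPM). Lymphocyte and NK cell markers had overlapping sums, 12.3 to 29.4 and 1.88 to 13.7 CPM. Of the 4 tested, 1 was called lower and 0 higher, with 3 below 0 and 1 above. Cd8a was at 0 in all CBPi libraries, and its median in vehicle was 0 too. The part of these markers in the result was not tested. Birc5 and Rrm2 passed in each of the 10 omissions of 1 library. Of the 6 calls they were the only ones left without CBPi mMDSC 6, 9 or 10 or vehicle mMDSC 2. Bub1b was gained without CBPi mMDSC 6 or vehicle mMDSC 3, Cdt1 without CBPi mMDSC 10 or vehicle mMDSC 4, and Plk1 without CBPi mMDSC 10. Tk1 was lost in all but the omission of CBPi mMDSC 8, Mki67 in all but those of CBPi mMDSC 8 and vehicle mMDSC 5, Ccna2 in all but those of CBPi mMDSC 8 and vehicle mMDSC 4, and Aurkb in 5 (CBPi mMDSC 6, 9 and 10 and vehicle mMDSC 2 and 5), with adjusted p up to 0.105, 0.0845, 0.115 and 0.0596; with no filter on low counts Tk1 and Ccna2 were lost as well.

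In gMDSC, 5 of the 36 members fell under CBPi and 0 rose, against 5.52% of tested genes called lower and 4.18% called higher. The 5 were the mitotic members Mki67, Birc5, Top2a and Ube2c and the S-phase member Tk1. The median log2 fold change was -0.82 for mitotic members, all 19 of which were below 0, and -0.48 for S-phase members, 16 of 17 below 0, against 0 over all tested genes. The exception, Pcna (0.27 ± 0.27), missed an unadjusted p of 0.05, and DESeq2 called 13 members lower and 0 higher. Birc5, Mki67 and Tk1 passed in both populations. The share of all tested genes called lower in both was not counted, so this overlap is no result about the members. These comparisons share no library, but the labels do not say whether libraries of the same number share a mouse.

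Mki67 was at 79.5, 71.9, 88.6, 90.3 and 81.6 CPM in vehicle gMDSC 1 to 5 and at 27.9, 41.3, 36.9, 28.6 and 32.3 CPM in CBPi gMDSC 6 to 10 (-1.26 ± 0.16, adjusted p = 0.000564). The highest CBPi library was well below the lowest vehicle library. Birc5 was at 24.5, 23.1, 23.9, 16.7 and 19.8 CPM in vehicle and at 6.8, 6.63, 8.73, 9.73 and 10.5 CPM under CBPi (-1.31 ± 0.24, adjusted p = 0.00493), without overlap. Tk1 was at 14.2, 14.5, 19.7, 13.2 and 14.6 CPM in vehicle and at 4.4, 6.14, 7.98, 6.49 and 5.96 CPM under CBPi (-1.26 ± 0.26, adjusted p = 0.0104), also without overlap.

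Top2a was at 72.5, 66.8, 56.0, 47.2 and 79.0 CPM in vehicle and at 19.7, 35.0, 45.0, 32.0 and 34.8 CPM under CBPi (-0.91 ± 0.23, adjusted p = 0.0254). Ube2c was at 18.1, 18.1, 14.7, 17.9 and 11.04 CPM in vehicle and at 9.06, 8.52, 7.33, 8.99 and 9.9 CPM under CBPi (-0.82 ± 0.24, adjusted p = 0.0455). Neither gene overlapped between the groups, and the closest pair was vehicle gMDSC 5 and CBPi gMDSC 10 for Ube2c. Cdk1, at 37.6 ± 9.74 and 21.4 ± 4.78 CPM, narrowly missed the threshold (-0.77 ± 0.23, adjusted p = 0.0502), as did Cenpe (-0.79 ± 0.24, adjusted p = 0.0533) and Tyms (-1.09 ± 0.33, adjusted p = 0.0539).

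Tyms was at 20.5, 15.1, 16.7, 12.98 and 21.4 CPM in vehicle gMDSC and at 3.5, 8.73, 10.8, 10.9 and 5.62 CPM under CBPi, which did not overlap although the adjusted p did not pass. Rrm2 was at 35.0, 38.3, 12.97, 17.6 and 32.1 CPM in vehicle and at 21.6, 32.6, 26.9, 25.3 and 22.5 CPM under CBPi (-0.04 ± 0.29, adjusted p = 0.946). Its vehicle libraries 3 and 4 lay below every CBPi library and the others near or above the highest. Among the helicase subunits the largest fitted decrease was that of Mcm5 (-0.67 ± 0.21, adjusted p = 0.0594), and Mcm4 had the smallest (-0.04 ± 0.24).

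**Figure D5:**
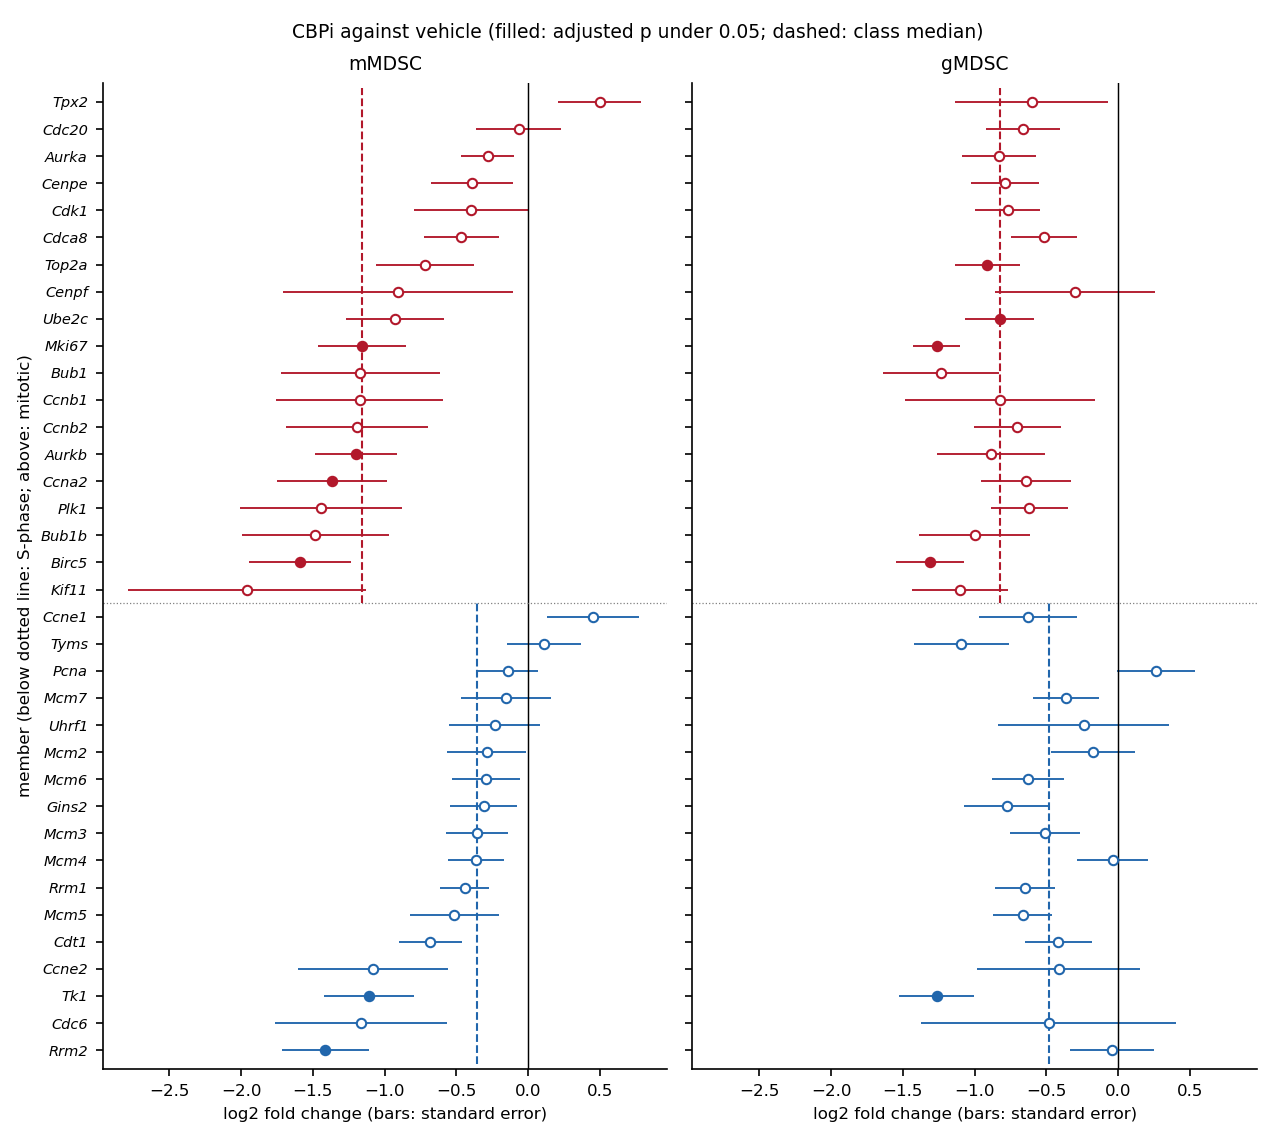
Log2 fold change of each member under CBPi against vehicle (horizontal axis; bars are standard errors) in mMDSC and gMDSC; filled points have an adjusted p under 0.05 and dashed lines are the medians of the S-phase (blue) and mitotic (red) members. The mitotic medians are -1.16 and -0.82 and the S-phase medians -0.36 and -0.48, and 33 and 35 of the 36 points lie left of 0.

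The mitotic sum was 525 ± 48.8 CPM in vehicle gMDSC and 280 ± 48.3 CPM under CBPi, and the S-phase sum 600.5 ± 114 and 428 ± 49.5 CPM. The ratio of the mitotic to the S-phase sum was 1.01, 0.741, 0.976, 0.93 and 0.794 in vehicle gMDSC 1 to 5 and 0.538, 0.683, 0.637, 0.598 and 0.823 in CBPi gMDSC 6 to 10. CBPi gMDSC 10 was above vehicle gMDSC 2 and 5, and the other 4 CBPi libraries were below all vehicle libraries. The vehicle gMDSC libraries are the same ones that were set against vehicle mMDSC above, so a high value there enters both comparisons.

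Markers of neutrophils and of other cells moved with the decrease in gMDSC. The 10 neutrophil genes had overlapping sums, 10770 to 39970 CPM in vehicle and 10860 to 19300 CPM under CBPi, with 7 below 0 and 3 above. Of these, 1 was called lower and 0 higher, Cxcr2 (1428 ± 371 to 816 ± 175 CPM). The gate gene Ly6g was at 5.21 ± 3.12 and 0.973 ± 0.671 CPM and was not called (adjusted p = 0.0502). Epithelial markers summed to 24.1 to 56.3 CPM in vehicle and 6.39 to 12.0 CPM under CBPi, with Krt18 at 34.0 ± 11.4 and 1.53 ± 1.49 CPM. Granulocyte precursor genes had overlapping sums, 245 to 811 and 270 to 569 CPM, but 3 of the 6 tested were called lower: Ltf, lactoferrin (58.1 ± 18.5 against 18.4 ± 8.76 CPM), Ngp, neutrophilic granule protein (23.8 ± 18.5 against 3.66 ± 2.54 CPM), and Camp, cathelicidin (5.27 ± 4.28 against 0.909 ± 0.397 CPM). Lymphocyte and NK cell markers summed to 10.3 to 19.8 and 2.00 to 7.47 CPM, with Cd8a at 0 in both groups. Of the 4 tested, all were below 0 and 1 was called lower. Macrophage genes summed to 33800 to 76850 and 16630 to 31790 CPM, with 2 of 10 called lower, Apoe and Trem2. The 10 monocyte genes had overlapping sums, 2758 to 4767 and 2818 to 3340 CPM, with Ccr2, Ly6c2, Irf8 and Cx3cr1 called lower and F13a1 higher. The part of these cells in the result was not tested. Birc5, Mki67 and Tk1 passed in each omission of 1 library, which left 3 calls without CBPi gMDSC 7, 9 or 10 or vehicle gMDSC 1 or 2. Top2a was lost without any single one of those 5 libraries or vehicle gMDSC 5, and Ube2c in all but the omissions of vehicle gMDSC 3 and 5, with adjusted p up to 0.0595 and 0.109. Without vehicle gMDSC 3, 12 members were lower, and without vehicle gMDSC 3 and 5 together, 8 were lower, among them Cdk1, Aurka, Aurkb and Bub1 but not Top2a.

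Under CBPi the gMDSC were above the mMDSC in 22 of the 36 members and below in 0, in a comparison where 20.1% of tested genes were called higher and 19.1% lower. The 22 were 15 of the 19 mitotic members, all except Aurka, Cenpf, Kif11 and Tpx2, and 7 of the 17 S-phase members, Mcm2, Mcm3, Mcm5, Mcm6, Mcm7, Rrm1 and Rrm2. The medians were 1.39 for mitotic and 0.49 for S-phase members, against -0.05 over all tested genes. No member was lower at an unadjusted p under 0.05, and DESeq2 called 26 higher and 0 lower.

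Rrm2 had the smallest p in this comparison among the members, at 5.76, 4.19, 10.01, 3.84 and 6.77 CPM in CBPi mMDSC and 21.6, 32.6, 26.9, 25.3 and 22.5 CPM in CBPi gMDSC (2.13 ± 0.26, adjusted p = 3.3e-05). The gMDSC libraries were all above the mMDSC libraries. Ccna2 was at 3.53 ± 1.07 and 13.9 ± 4.18 CPM (2.04 ± 0.29, adjusted p = 0.000129), and Ccnb2 at 4.30 ± 2.90 and 21.4 ± 8.75 CPM (2.38 ± 0.41, adjusted p = 0.00057). Plk1, at 2.88 ± 2.44 and 13.01 ± 2.23 CPM, differed by 2.23 ± 0.49 (adjusted p = 0.00291). Tk1 and Tyms, both higher in gMDSC in vehicle, were not called here (0.73 ± 0.34 and -0.21 ± 0.31). Of the 22 calls, 14 held in each omission of 1 library; Ccnb1 was lost without CBPi mMDSC 10 (adjusted p = 0.0508), and Mcm2, Mcm3, Mcm6, Rrm1, Mki67, Cdk1 and Bub1 in 4 to 7 of 10, with adjusted p up to 0.118. When all 20 libraries were fitted together, the 5 helicase subunits and Rrm1 did not pass.

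Whether the response to CBPi differed between the populations was tested as the interaction over all 20 libraries. It called 0 of the 36 members with edgeR, against 0.497% of tested genes higher and 0.229% lower, and 0 with DESeq2. At an unadjusted p under 0.05 there were 3 members, all in S phase. They were Rrm2, which had the more negative response in mMDSC (interaction 1.32 ± 0.43, adjusted p = 0.205), and Tyms (-1.25 ± 0.42, adjusted p = 0.217) and Ccne1 (-1.13 ± 0.47, adjusted p = 0.353), which had it in gMDSC. The class medians of the interaction were 0.05 for mitotic and -0.19 for S-phase members. A call of Rrm2 in mMDSC alone, or of Top2a in gMDSC alone, is therefore no shown difference between the populations.

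Other genes of the same pathways were described through 7 lists, whose counts stand against the shares of all tested genes: 13.6% higher and 8.08% lower in gMDSC in vehicle, 20.1% and 19.1% under CBPi, and with CBPi 3.02% higher and 5.54% lower in mMDSC and 4.18% and 5.52% in gMDSC. Of 44 further genes of the spindle, kinetochore and cytokinesis, 26 were higher in gMDSC in vehicle and 29 under CBPi, with 0 lower in either and medians of 1.19 and 1.22. Kif23, a motor of the central spindle, was at 13.2 CPM in vehicle mMDSC and 61.3 CPM in vehicle gMDSC (2.23 ± 0.26, adjusted p = 4.9e-05). Under CBPi this list had 6 members lower in mMDSC and 3 in gMDSC, with 0 higher and medians of -0.70 and -0.55; the 3 of 44 in gMDSC are near the share of all tested genes called lower there. Examples were Incenp, the scaffold of the passenger complex, in mMDSC (39.5 ± 3.97 to 23.2 ± 4.48 CPM, -0.78 ± 0.15, adjusted p = 0.00781) and Cdca3, a trigger of mitotic entry, in gMDSC (23.4 ± 4.29 to 7.45 ± 1.85 CPM, -1.61 ± 0.25, adjusted p = 0.002).

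The 36 further genes of origin licensing and the replication fork were less uniform. In vehicle 1 was higher in gMDSC, the DNA ligase Lig1 (17.8 ± 1.32 against 44.7 ± 7.10 CPM, 1.35 ± 0.17, adjusted p = 0.000112), and 2 were lower, Orc3 and Rfc2, with a median of 0 over the list. In gMDSC against mMDSC under CBPi, 3 were higher and 6 lower, against 20.1% and 19.1% of all tested genes. There 26 of the 36 were below 0, with a median of -0.23, unlike the S-phase members. Under CBPi 2 fell in mMDSC, Rfc2 and Gins1, and 3 fell in gMDSC, Lig1 (-1.02 ± 0.18, adjusted p = 0.00523) and the polymerase alpha subunits Pola1 and Pola2. Both counts, of 36 genes, are near the shares of all tested genes called lower, 5.54% in mMDSC and 5.52% in gMDSC. Of the 14 genes of nucleotide supply, 0 were called under CBPi in either population (3 in each at an unadjusted p under 0.05). In vehicle 2 were higher in gMDSC, Samhd1, which degrades deoxynucleotides, and Shmt1. This count is near the 13.6% of all tested genes called higher there.

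Upstream of S phase, Ccnd1, cyclin D1, was the only one of the 7 G1 cyclins and kinases called under CBPi; at an unadjusted p under 0.05 there were 2 of 7 in mMDSC and 3 of 7 in gMDSC, Ccnd1 included. It was at 39.1 ± 3.43 CPM in vehicle mMDSC and 11.6 ± 4.54 CPM under CBPi (-1.76 ± 0.24, adjusted p = 0.000769), and at 41.4 ± 13.3 and 14.8 ± 4.19 CPM in gMDSC (-1.44 ± 0.27, adjusted p = 0.00633). The highest CBPi library was below the lowest vehicle library in both populations. Among 5 tested CDK inhibitors Cdkn1a, p21, rose under CBPi in gMDSC (973 ± 475 to 2049 ± 694 CPM, 1.12 ± 0.30, adjusted p = 0.035) and was at 997 ± 315 and 1203 ± 231 CPM in mMDSC, where 0 inhibitors were called. The interaction called 0 of the 5 inhibitors, with 1 at an unadjusted p under 0.05. The call of Cdkn1a in gMDSC alone is therefore no shown difference between the populations. Cdkn2d and Cdkn1b were higher in gMDSC than in mMDSC in vehicle, by 1.48 ± 0.25 (adjusted p = 0.00093) and 1.27 ± 0.36 (adjusted p = 0.0228).

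Of the 20 E2F, RB and MuvB regulators, 2 were called in gMDSC under CBPi, 1 in each direction, a share near that of all tested genes. The activator E2f2 fell (9.82 ± 3.74 to 2.44 ± 2.00 CPM, -1.97 ± 0.56, adjusted p = 0.0426), and Lin54, the MuvB subunit that binds CHR elements, rose (13.7 ± 2.02 to 28.5 ± 5.82 CPM, 1.08 ± 0.22, adjusted p = 0.00844). In mMDSC 0 of the 20 were called, and 1 had an unadjusted p under 0.05, again E2f2, with the larger fitted value (6.57 ± 3.55 to 0.976 ± 0.831 CPM, -2.73 ± 0.82, adjusted p = 0.0581). Its interaction was 0.73 ± 1.00 (adjusted p = 0.844). Of 14 p53 targets, 1 was called higher and 0 lower under CBPi in each population. All tested genes called higher made up 3.02% in mMDSC and 4.18% in gMDSC. The called targets were Mdm2 in gMDSC (0.70 ± 0.18, adjusted p = 0.0309) and Pmaip1 in mMDSC (0.51 ± 0.13, adjusted p = 0.0342). In mMDSC 10 of the 14 were below 0 (median -0.23), and Mdm2 went from 136 to 108 CPM. In gMDSC 6 were below 0 and 8 above (median 0.08). At an unadjusted p under 0.05 there were 7 in mMDSC and 5 in gMDSC. The interaction called 0 of the 14. Between the populations in vehicle, 3 of the 14 were higher in gMDSC and 2 lower, against 13.6% and 8.08% of all tested genes. There 9 were above 0 and 5 below (median 0.33). The largest value was that of the stress gene Gadd45a, higher in gMDSC by 4.33 ± 0.30 (adjusted p = 6.24e-07), at 296 ± 126 against 14.8 ± 3.41 CPM.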

How the data were processed

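The authors deposited for each library a table of whole-number read counts per gene, not normalized, with a gene width and RPKM values, which were not used. Reads were aligned with GSNAP to GRCm38, per the submitters' processing notes; which counter, annotation and strand setting followed is not given in the sources used here. Symbols and coordinates came from a RefSeq table of GRCm38.p6, in which 21647 of the 23090 identifiers had a symbol, and promoter sequences from RefSeq windows of the same build. The deposited width, in bases, was used to give levels per kilobase; it is a multiple of 3 in 34 of the 36 members, so it is mostly a coding length. No member had counts identical to those of another gene.

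Counts were tested in R 4.3.3 with edgeR 4.0.16 (TMM scaling, filterByExpr with a minimum count of 10 and a minimum total of 15, quasi-likelihood test), per comparison on its 10 libraries or, for the interaction, on all 20. P-values were adjusted over all tested genes by the Benjamini-Hochberg method, and called means an adjusted p under 0.05. Standard errors (SE) are |log2 fold change| over √F. CPM values were TMM-scaled over all 20 libraries. The members and lists were chosen with earlier results of these data known. Named genes were all 36 members, up to 3 called genes per list and comparison with the smallest p, and markers that moved with a result; genes outside this rule were named where a count was 5 or fewer. Replicates were the 5 libraries per group. The labels do not say that these came from separate mice, so p-values measure the spread between libraries, part of which may be technical. Library totals of 12.37 to 26.64 mega-counts limit genes with few reads, and errors cover the spread between libraries. Alternatives were DESeq2 1.42.0, its size factors, no filter, 1 fit of all libraries, the replicate number as a block, and leaving out libraries.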

Additional observations from a re-analysis of the deposited data

Results flagged for a closer look

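Within groups of 5 libraries, 10 of 156 sets of values (36 members and 3 class measures in 4 groups) had 1 library whose gap to its nearest neighbour took up more than 0.71 of the whole range of the group, where chance gives about 1 in 20. Vehicle gMDSC 3 gave 4 of the 10. It was the lowest of its group in Mcm4 (29.6 CPM, next 63.5), in Aurkb (7.15 CPM, next 24.4) and in the summed mitotic members (442 CPM, next 530), and the highest in Tk1 (19.7 CPM, next 14.6). CBPi mMDSC 8 gave 3: the highest Mki67 (38.3 CPM, next 17.7), the highest Aurkb (9.96 CPM, next 5.46) and the lowest Mcm7 (7.78 CPM, next 11.2). The other 3 were Pcna in vehicle mMDSC 4, the highest at 14.2 CPM, Ccnb2 in CBPi mMDSC 6, the highest at 9.32 CPM, and the summed mitotic members in CBPi gMDSC 6, the lowest at 197 CPM. No member met the other criteria for a closer look.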

How the results depend on the processing

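DESeq2 called 675 genes higher in mMDSC under CBPi (main 360), 875 higher and 1062 lower in gMDSC (489 and 646) with 13 members lower (5), and 184 higher and 93 lower in the interaction (63 and 29). A joint fit of all 20 libraries called 165 genes higher in mMDSC under CBPi, 872 higher and 1310 lower in gMDSC with 10 members lower, and 1519 lower in gMDSC against mMDSC in vehicle (935). With the replicate block the interaction called 33 and 19 genes and 0 members, the vehicle comparison 12 members and the CBPi comparison 22. Same-numbered mMDSC and gMDSC libraries had correlations of -0.061 to 0.273, 2 of 10 above 0.1, and other pairs -0.344 to 0.317. Of the 10 mMDSC libraries, 3 correlated best with their own number. The labels do not say whether libraries of the same number share a mouse. Correlations between different cell types cannot decide this, as a shared mouse need not leave a common deviation in both. Without vehicle gMDSC 3 and 5, 8 members were lower in gMDSC under CBPi, and the mitotic minus S-phase median of the interaction, 0.24 in the main fit, turned to -0.07. Leaving out 1 library at a time gave 221 to 448 genes higher, 473 to 695 lower and 2 to 6 members lower in mMDSC under CBPi, where the mitotic minus S-phase median was -1.03 to -0.48 (main -0.80). In gMDSC it gave 229 to 658, 358 to 736 and 3 to 12, and that median was -0.42 to -0.17 (main -0.34; -0.17 without CBPi gMDSC 8, -0.20 without vehicle gMDSC 1). In gMDSC against mMDSC it gave 676 to 1521 genes lower (1521 without vehicle gMDSC 3) and 12 to 21 members higher in vehicle, and 15 to 22 members higher under CBPi. For the interaction it gave 23 to 85 genes higher, 10 to 32 lower, 0 members and a median of 0.04 (without CBPi mMDSC 7) to 0.32. DESeq2 size factors in edgeR moved no member by more than 0.05 (log2) and turned the sign of 2 uncalled values near 0 (Mcm4 and Cdt1 between populations). Over all alternatives other than single omissions, 841 values of members, called or not, stayed on the same side of the threshold, 25 lost a call and 34 gained one. The cause of these shifts was not tested. Members with few reads, such as Ccnb1, Cdc6 and Cenpf, have wide errors at this depth.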
